A study of Mus musculus with 18 samples.

Results

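The H3K27ac regions described here were called in livers with intact floxed Ctcf and in none of those in which an albumin-driven Cre targets it. The peak lists of the 6 H3K27ac libraries were merged wherever peaks shared at least 1 bp on chromosomes 1 to 19 and X, which gave 57342 regions. Of these, 527 (0.919%) were called in at least 2 of the 3 WT lists and in none of the 3 KO lists, 99 of them in all 3 WT lists and 428 in 2. They are called WT-only below. Since they were chosen by the presence and absence of H3K27ac peaks, their H3K27ac values are a description and were not tested.

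The study profiled chromatin of mouse liver by ChIP-seq in 18 libraries. The KO livers came from C57BL/6 mice of 8 weeks that were CTCF fl/fl and Albcre+, and the WT livers from mice of the same strain and age that were CTCF fl/fl and Albcre-. Both genotypes therefore carry floxed Ctcf alleles. The Albcre transgene drives the recombinase from the albumin promoter, so it acts in hepatocytes and cells that share their origin, and cells outside that lineage keep Ctcf. H3K27ac was measured in 3 KO and 3 WT livers, PPARg and CTCF each in 2 KO and 2 WT livers, and H3K4me3 and H3K27me3 each in 1 KO and 1 WT liver. The CTCF libraries and PPARg KO 7, KO 8 and WT 2 came from fasted males and were made by tagmentation. The H3K27ac, H3K4me3 and H3K27me3 libraries and PPARg WT 4 were made with a ligation kit, their labels give no sex, and the growth text of these libraries speaks of neural stem cells, which disagrees with their source and tissue labels. All 22 hepatocyte transcription factor genes and all 32 plasma protein genes listed for this work held an H3K27ac peak within 5 kb in each of the 6 libraries. So did all 13 endothelial markers, and 57.9% of all protein-coding genes lay within 5 kb of a region called in all 6. No list of neural genes was read, so these peaks do not settle the disagreement of the labels.

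H3K27ac is an acetyl mark on the histone H3 tail that sits at active enhancers and promoters, while H3K4me3 marks active gene starts and H3K27me3 marks genes silenced by Polycomb. CTCF is the zinc-finger protein that holds chromatin loops and insulates neighbouring domains. PPARg is the nuclear receptor of fat cell formation and lipid storage, and is low in normal hepatocytes. Many mouse liver genes differ between the sexes because growth hormone is released in pulses in males and more steadily in females, which sets the activity of STAT5B at those genes.

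Peak lists give no read depth. The H3K27ac lists held 35469 to 51299 peaks over 79.5 to 126 Mb in KO and 34315 to 40532 peaks over 78.2 to 91.5 Mb in WT. KO 4 was the longest list by both measures. The authors' fold is each peak's enrichment over background, and their −log10 q gives its false discovery rate, with a lowest value near 1 in all 6 lists. The H3K27ac libraries each had a peak at the Y-linked genes Ddx3y, Kdm5d, Eif2s3y and Uty and none at Xist, so all 6 looked male by these genes.

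The WT-only regions at gene starts fell at very unlike promoters, and 4 are shown because the account below returns to them. Each window runs from 250 bases before to 50 bases after the start, 5′ to 3′ along the gene, in RefSeq sequence of build GRCm38.p6. CG dinucleotides are in capitals. Mup7 (chr4:60070426-60070725, minus strand), Hsd3b5 (chr3:98645485-98645784, minus strand) and Slc22a28 (chr19:8131933-8132232, minus strand) are poor in them, with 1 each. Susd4 (chr1:182763966-182764265, plus strand) has 50.
Mup7: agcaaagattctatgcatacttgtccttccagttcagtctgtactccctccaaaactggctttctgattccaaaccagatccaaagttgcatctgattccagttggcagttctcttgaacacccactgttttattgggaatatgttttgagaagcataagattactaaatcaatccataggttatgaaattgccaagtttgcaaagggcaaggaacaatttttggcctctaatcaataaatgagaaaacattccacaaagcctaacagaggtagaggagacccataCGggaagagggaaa
Hsd3b5: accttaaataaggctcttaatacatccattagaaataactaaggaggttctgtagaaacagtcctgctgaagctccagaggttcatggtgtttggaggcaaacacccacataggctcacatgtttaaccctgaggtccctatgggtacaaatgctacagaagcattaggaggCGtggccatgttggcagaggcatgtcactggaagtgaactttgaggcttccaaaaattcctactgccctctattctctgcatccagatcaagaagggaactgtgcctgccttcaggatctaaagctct
Slc22a28: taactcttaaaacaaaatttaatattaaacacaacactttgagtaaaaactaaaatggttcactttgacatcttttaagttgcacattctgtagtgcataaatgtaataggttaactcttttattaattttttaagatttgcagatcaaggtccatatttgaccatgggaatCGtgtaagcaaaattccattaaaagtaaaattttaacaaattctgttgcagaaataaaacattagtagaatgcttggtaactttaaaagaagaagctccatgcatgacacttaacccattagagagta
Susd4: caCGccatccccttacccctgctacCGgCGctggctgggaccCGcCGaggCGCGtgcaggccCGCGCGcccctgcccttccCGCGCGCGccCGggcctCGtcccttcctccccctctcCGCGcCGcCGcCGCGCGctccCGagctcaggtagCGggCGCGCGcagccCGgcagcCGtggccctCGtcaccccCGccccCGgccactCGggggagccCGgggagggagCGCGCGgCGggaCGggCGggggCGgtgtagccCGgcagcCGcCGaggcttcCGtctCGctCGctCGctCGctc

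Over the 20 start windows that WT-only regions touched, the median number of CG dinucleotides was 10.5. It was 20 over the 12554 windows in regions called in all 6 libraries and 7 over all 32619 windows of the table. The GC content of the 4 windows was 40.0% at Mup7, 46.0% at Hsd3b5, 28.3% at Slc22a28 and 81.3% at Susd4. The STAT motif TTCNNNGAA, which reads alike on both strands, was in 1 of the 20 windows, at Gstm6, and in 8.34% of all windows. The TATA letters TATAAA, on either strand, were in 2 of the 20 and in 13.7% of all windows.

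WT-only regions were narrow and weakly called. Their median width was 816 bp, against 1157.5 bp for the 3186 regions called in at least 2 KO and no WT list (KO-only below) and 3475 bp for the 22732 regions called in all 6. Within them, the median of the highest fold was 3.04 in WT 1, 2.75 in WT 2 and 3.04 in WT 4, and in regions called in all 6 it was 4.10, 4.20 and 4.10 in the same libraries. The median −log10 q in WT-only regions was 1.69 in WT 1, 1.90 in WT 2 and 1.71 in WT 4, against 3.73, 6.45 and 3.70 in regions called in all 6. Peaks below a −log10 q of 2 made up 74.2%, 57.3% and 73.6% of the WT-only calls in WT 1, WT 2 and WT 4. In regions called in all 6 those shares were 12.4%, 3.62% and 15.6%. KO-only regions were weak as well, with 70.1%, 85.6% and 63.0% of their calls below 2 in KO 2, KO 3 and KO 4.

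**Figure D1:**
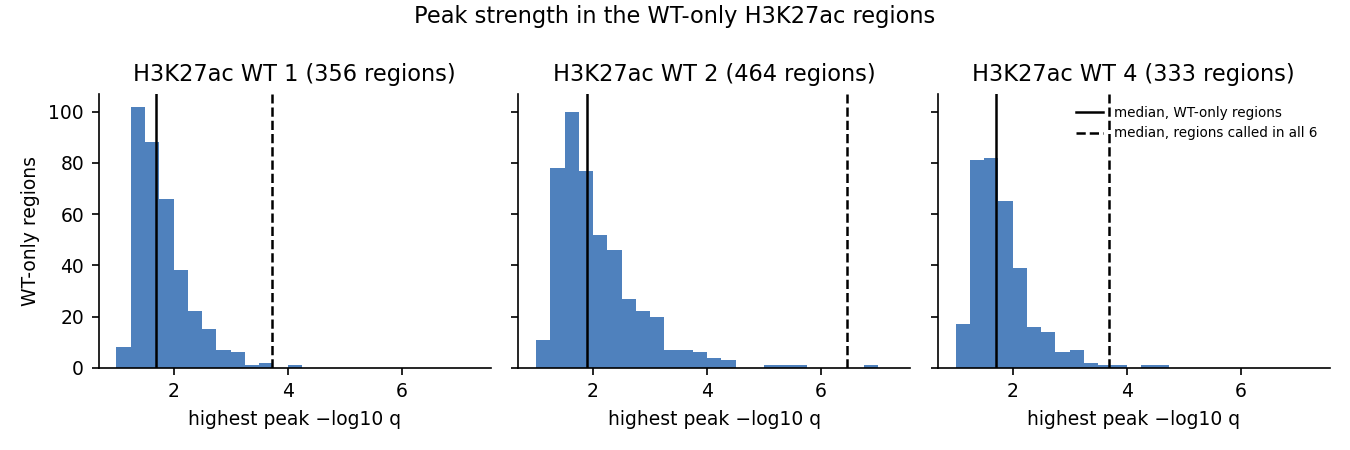
Each panel counts WT-only regions (y axis) by the highest −log10 q of their H3K27ac peaks in 1 WT library (x axis). The median over WT-only regions (solid line) was 1.69, 1.90 and 1.71, below the median over regions called in all 6 libraries (dashed line), which was 3.73, 6.45 and 3.70.

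The libraries did not contribute alike. WT 2 called 464 of the 527 regions, WT 1 called 356 and WT 4 called 333. Of the 428 regions called in 2 WT lists, 194 were shared by WT 1 and WT 2, 171 by WT 2 and WT 4, and 63 by WT 1 and WT 4. Just outside the rule lay 1198 regions called in 2 WT lists and 1 KO list, and in 1067 of them (89.1%) the KO list was KO 4, the longest. Their median width was 1195 bp and their median folds were 3.03 in WT 1, 2.79 in WT 2 and 3.03 in WT 4, which are close to those just inside. A further 4470 regions were called in 1 WT list and no KO list, with a median width of 402 bp.

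Which regions counted as WT-only depended on the lists. Without KO 4 the same rule found 2125 regions. With WT 2 left out it found 168, with WT 1 left out 281 and with WT 4 left out 299. With a −log10 q of at least 2 asked of every peak it found 494 regions, but these overlapped only 79 of the 527 (15.0%). With all lists shortened to equal covered length it found 1213, which overlapped 124 of the 527 (23.5%). The regions at Mup7, Hsd3b5 and Slc22a28 described below were among the 99 called in all 3 WT lists.

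**Figure D2:**
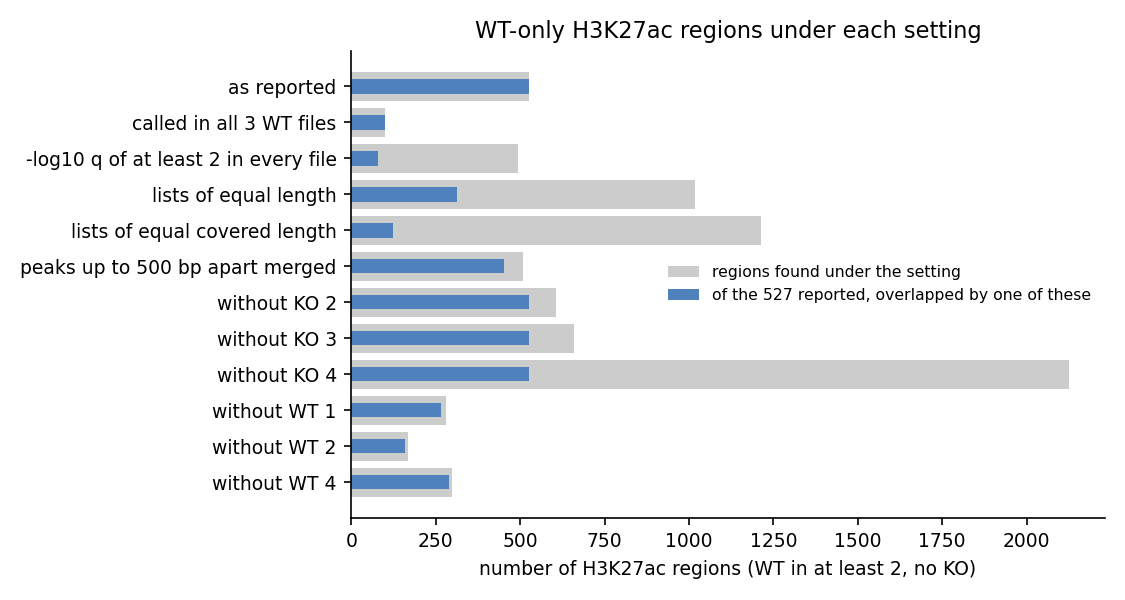
Grey bars give the number of H3K27ac regions called in at least 2 WT lists (in all 3 for the second bar) and no KO list under each setting. Blue bars give how many of the 527 reported regions those overlap, which is 79 when every peak must reach a −log10 q of 2 and 124 with lists of equal covered length.

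Most WT-only regions lay within 5 kb of an H3K27ac peak called in KO. The nearest KO peak was a median of 2639 bp away, 131 regions (24.9%) had one within 1 kb, 331 (62.8%) had one within 5 kb and 35 had none within 50 kb. The KO-only regions lay a median of 6458 bp from the nearest WT peak, and 9.64% had one within 1 kb. The KO lists include KO 4, the longest list, so these distances are not like for like. WT-only regions were scattered: 454 stood alone, 35 pairs and 1 group of 3 lay within 50 kb of each other. The group of 3 lay 13460 to 76600 bp from Amigo2, a neuronal adhesion protein gene. Chromosome 1 held 51 (1.37% of its H3K27ac regions), chromosome 4 held 48 (1.37%) and chromosome X held 8 (0.906%). Over all chromosomes the share was 0.919%.

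The annotation used gives gene spans without exons, so a region can be placed inside or outside a gene only. Of the 527, 319 (60.5%) overlapped the span of a protein-coding gene, close to the 61.1% of KO-only regions and below the 75.2% of regions called in all 6. A start window lay in 18 of the 508 WT-only regions on chromosomes the promoter table covers (3.54%). It lay in 6.26% of KO-only regions and 39.2% of regions called in all 6. The shares in gene spans and at starts were not adjusted for width. Median widths were 816 bp for WT-only, 1157.5 bp for KO-only and 3475 bp for regions called in all 6. WT-only regions lay within 5 kb of 339 of 21631 protein-coding genes (1.57%), and 73 regions were more than 50 kb from any.

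Some WT-only regions lay in the cluster of major urinary protein genes. These genes encode the pheromone carriers that male mouse liver secretes in bulk. The region over the start of Mup7 (chr4:60068463-60072648, 4186 bp) had no peak in KO 2, KO 3 or KO 4 and folds of 3.47 in WT 1, 3.37 in WT 2 and 3.86 in WT 4. A neighbour in the same gene window (chr4:60065216-60067197) had folds of 2.97 in WT 2 and 3.81 in WT 4 and no peak in WT 1 or any KO library. Across the gene window of Mup7, its span extended by 5 kb at both ends, H3K27ac peaks covered 0%, 0% and 0% in KO 2, KO 3 and KO 4, against 16.6%, 21.9% and 43.0% in WT 1, WT 2 and WT 4. The groups did not overlap, and WT 4 was well above the other WT libraries. Since the window holds regions chosen for having no KO peak, such separation is partly built in. This applies to the other gene windows below that hold a WT-only region. All 3 KO values were below all 3 WT values in 1.57% of the 14883 genes with an H3K27ac peak. The Mup1 window was covered to 0%, 2.85% and 4.23% in the KO libraries, against 8.66%, 12.6% and 19.9% in WT. Of 22 Mup genes on the list, Mup1 and Mup7 lay within 5 kb of a WT-only region and none lay within 5 kb of a KO-only region. Of all genes 1.57% and 8.46% did. Regions called in all 6 libraries lay within 5 kb of 10 of the 22 Mup genes. Further WT-only regions in the cluster lay at Mup-ps12 and at and beside Mup-ps16, which the annotation lists as protein coding, and 12573 bp from Mup14. The genotypes overlapped in the Mup-ps16 window. Its cover was 16.7%, 27.9% and 26.5% in KO 2, KO 3 and KO 4, and 2.67%, 25.6% and 43.1% in WT 1, WT 2 and WT 4. The Mup genes are near-identical copies, so which copy a read came from is uncertain. All of the cluster's WT-only regions other than the first of Mup7 were called in WT 2 and WT 4 and not in WT 1.

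The start of Hsd3b5, a 3-ketosteroid reductase found mainly in male mouse liver, lay in another (chr3:98643550-98646199). It had no KO peak and folds of 3.21 in WT 1, 3.48 in WT 2 and 3.09 in WT 4. Only the WT 2 peak crossed the start, and those of WT 1 and WT 4 began 70 and 315 bp after it. In the Hsd3b5 window H3K27ac covered 10.4%, 9.50% and 12.9% in KO 2, KO 3 and KO 4, against 26.9%, 28.9% and 20.6% in WT 1, WT 2 and WT 4. All 3 KO libraries were below all 3 WT libraries, which is partly built in, since the window holds the region the rule chose. A second region between the Hsd3b genes (chr3:98680735-98683456), 27650 bp from Hsd3b2, had folds of 3.32 in WT 1, 3.09 in WT 2 and 2.96 in WT 4. The Hsd3b genes are close copies as well.

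WT-only regions also lay on the starts of transporter genes. Slc22a28 belongs to a family of organic anion transporters. Its region (chr19:8130399-8133854) had folds of 3.35, 3.23 and 3.07 in WT 1, WT 2 and WT 4, and the nearest KO peak was 109788 bp away. Only the WT 2 peak crossed the start, with peaks of WT 1 and WT 4 on either side. The Slc22a28 window had 0% cover in each KO library, against 1.69%, 3.42% and 2.38% in WT 1, WT 2 and WT 4. At Slc13a2, a carrier of citrate and other dicarboxylates, the region (chr11:78420200-78423187) had folds of 3.32, 2.98 and 3.04. There a KO peak lay 1156 bp away, and the gene windows overlapped between genotypes, at 7.26%, 7.15% and 8.50% in KO and 13.4%, 19.1% and 6.46% in WT.

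**Figure D3:**
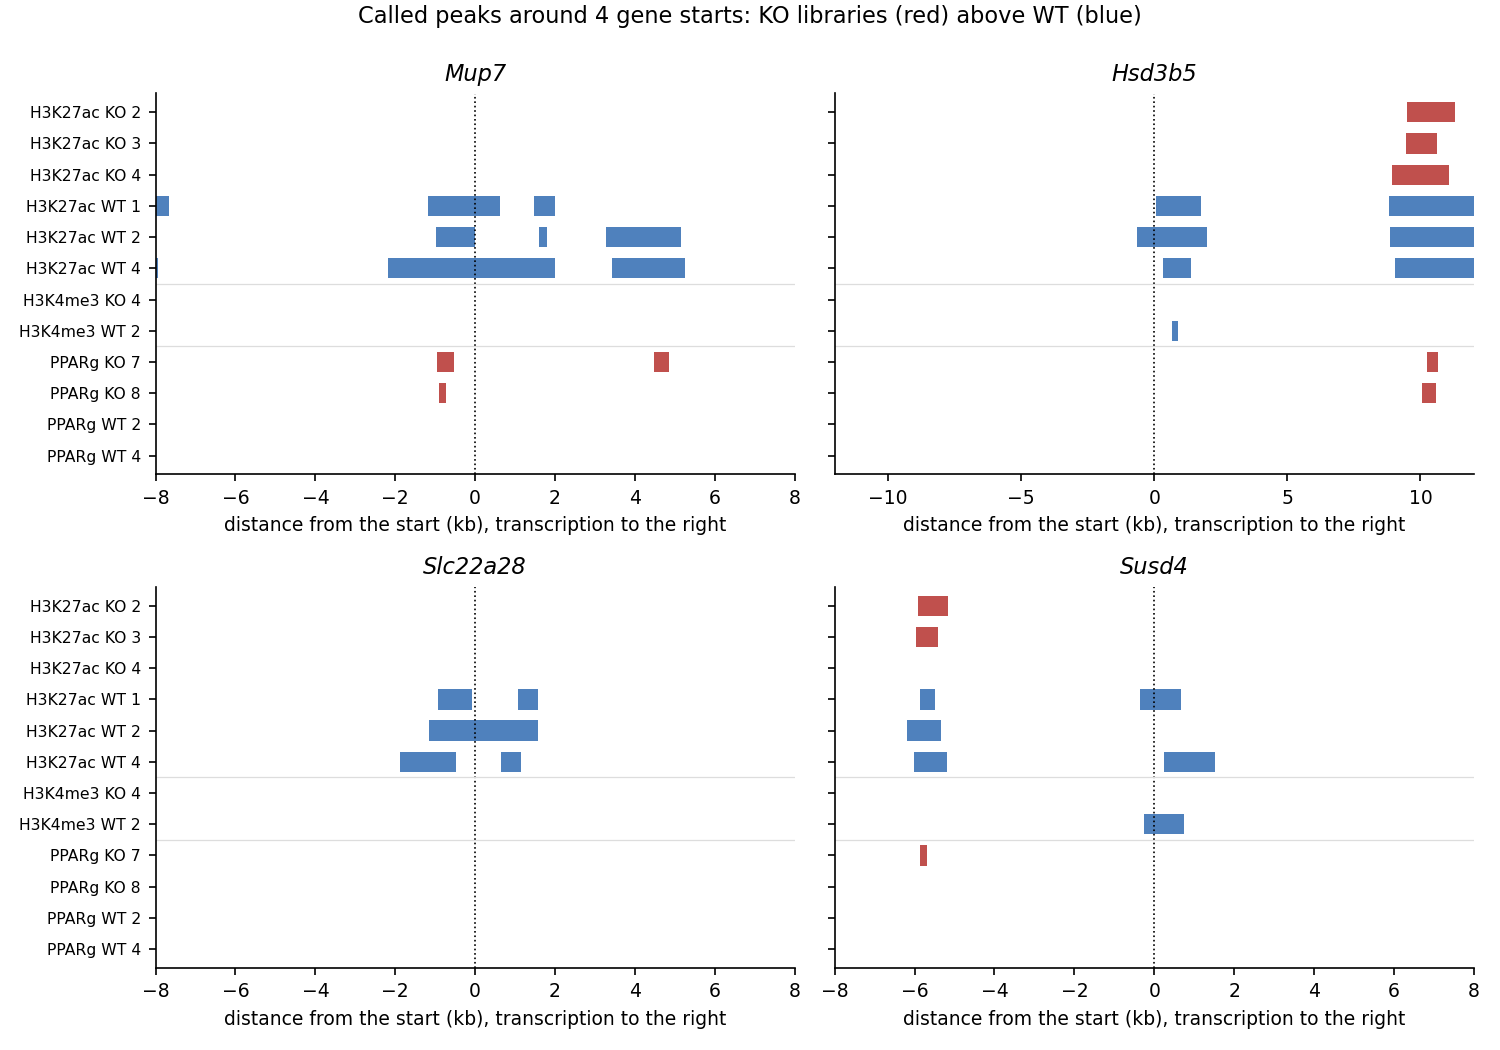
Bars mark called peaks of each library (rows, KO in red above WT in blue for each target) by distance in kb from the start of Mup7, Hsd3b5, Slc22a28 and Susd4, with transcription to the right. H3K27ac bars within the 4 merged regions at these starts are in WT rows only, as the rule for the regions asked. At Mup7 bars of all 3 WT libraries cross the start. Only WT 2 crosses it at Hsd3b5 and Slc22a28, and only WT 1 at Susd4. PPARg peaks at Mup7 are in KO 7 and KO 8.

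The other wide regions lay at genes of mixed roles. The widest of all by WT cover lay in Dpy19l3, a C-mannosyltransferase gene (chr7:35742842-35747673), with folds of 3.27, 3.13 and 3.38 in WT 1, WT 2 and WT 4. Those in Ebpl, an emopamil binding protein relative, in Aox1, the aldehyde oxidase, and in Phlpp1, a phosphatase of AKT, had mean WT folds of 3.03, 3.06 and 3.06. The region 36000 bp from Prox1, a transcription factor of hepatoblasts and hepatocytes, had a mean fold of 3.06 and a KO peak 744 bp away. Among the regions called in all 3 WT lists, the highest mean fold was 3.79, at Zfp653, a zinc-finger gene, followed by 3.60 in Fras1, a basement membrane protein gene, and 3.57 at Mup7. The region 363605 bp from Fign (3.52) was 326915 bp from the nearest KO peak, and that in Ulk4 (3.50) was 36074 bp from one. Those nearest Jph4, Onecut1, Slc39a11 and Gpc5 had mean folds between 3.34 and 3.38.

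Of the 339 genes within 5 kb of a WT-only region, 41 (12.1%) had all 3 KO values below all 3 WT values, where the background over 14883 genes with any H3K27ac peak was 1.57%. The rule used this contrast, so nothing is read from that count. The other way, 9 of the 339 had all KO values above all WT values, against a background of 10.2%. The median difference in cover, KO minus WT, was -0.34 percentage points over the 339 genes and 0.92 over the 14883. The Prox1 window had 32.2%, 40.0% and 40.6% cover in KO and 43.6%, 52.4% and 45.6% in WT. The Aox1 window had 13.8%, 17.7% and 17.9% in KO and 20.9%, 22.1% and 17.8% in WT, so the genotypes overlapped there.

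**Figure D4:**
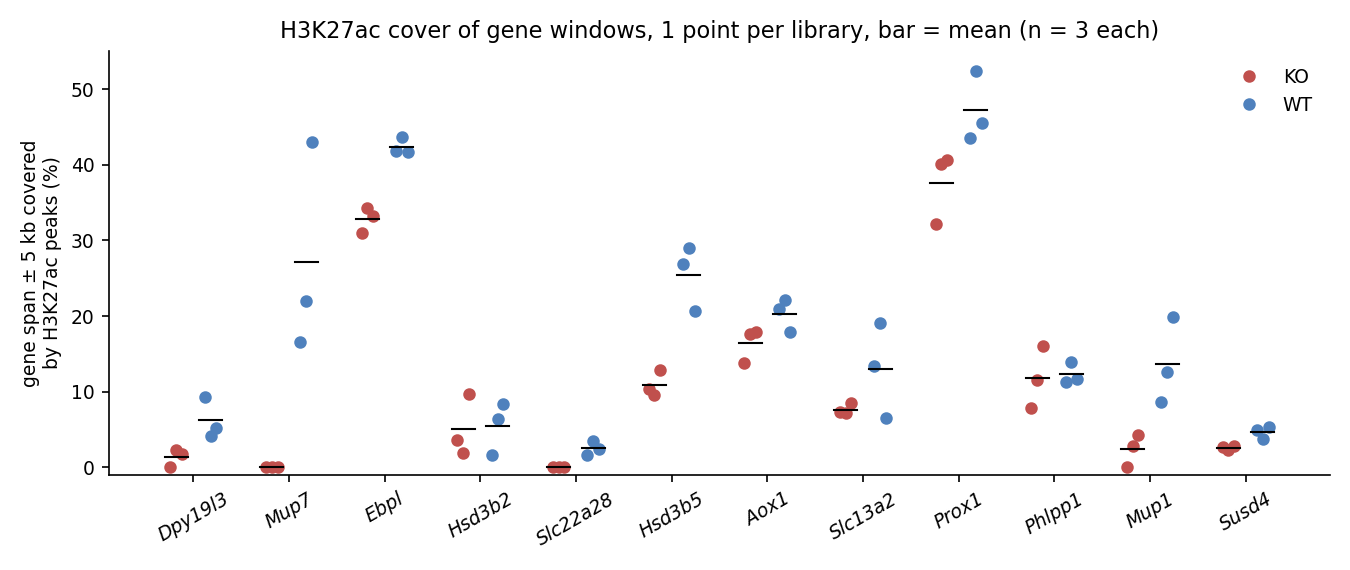
Points give, for each H3K27ac library, how much of a gene window (its span extended by 5 kb at both ends) lay under peaks, in percent (y axis), at the genes nearest the 10 widest WT-only regions and at Mup1 and Susd4 (x axis), KO left of WT, with a bar at the mean of 3 libraries. KO was at 0% at Mup7 and Slc22a28, and the genotypes overlap at Hsd3b2, Aox1, Slc13a2 and Phlpp1.

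The gene lists were read by how many genes lay within 5 kb of a WT-only region, without a test, and the highest share was that of male-biased liver genes. Of 18 listed, 5 (27.8%) lay near one: Cyp7b1, Hsd3b5, Mup1, Mup7 and Susd4. Of 21 female-biased genes 1 did (4.76%), the transcription factor gene Tox, against 1.57% of all genes. For KO-only regions the counts were 1 of the 18 and 4 of the 21, against 8.46% of all genes. Cyp7b1 is the oxysterol 7-alpha-hydroxylase of bile acid synthesis, and its region had folds of 3.25, 2.82 and 2.97 in WT 1, WT 2 and WT 4. Susd4 encodes a complement regulator, and the region over its start (chr1:182763853-182765744) had folds of 3.62 in WT 1 and 3.20 in WT 4 and no peak in WT 2. Only the WT 1 peak crossed the start shown above. The Susd4 window was covered to 2.74%, 2.27% and 2.83% in KO, against 4.96%, 3.73% and 5.35% in WT. These lists were drawn up with earlier results of these data known, so the counts are no independent evidence.

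Growth hormone signalling had 2 of 10 genes near a WT-only region, Ghr, the receptor, and Stat5b, its transcription factor, with mean WT folds of 3.03 and 2.99. Neither region was called in WT 4. Mean folds from here on are over the WT lists that called a region, which were 2 of 3 except at Prox1 and Aox1. The Ghr region lay 8 bp from a KO peak. The Ghr and Stat5b windows averaged 21.6% ± 6.01 and 39.8% ± 4.55 in KO and 21.9% ± 1.22 and 35.5% ± 4.70 in WT (SD, n = 3 each), so whole-gene cover differed by less than the spread. Fatty acid and triglyceride synthesis had 4 of 22, Acly, Elovl2, Elovl6 and Mlxipl, with mean folds of 3.03, 2.53, 2.88 and 2.85. The nearest KO H3K27ac peaks lay 1013, 636, 562 and 1321 bp from these regions. The gene windows of all 4 overlapped between genotypes. Hepatocyte transcription factors had 4 of 22, Esrrg, Prox1, Tbx3 and Zbtb20, and their highest mean folds ran between 2.90 (Prox1, Tbx3) and 3.39 (Esrrg). KO-only regions lay near 1 of 10, 3 of 22 and 5 of 22 genes of these lists, in the same order. Of all genes, 1.57% lay near a WT-only region and 8.46% near a KO-only one.

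Drug metabolism had 3 of 41 genes, with a mean fold of 3.99 at Fmo1, a flavin monooxygenase, 3.06 at Aox1 and 2.74 near Cyp2d26. The value at Fmo1 (chr1:162839669-162840587) was the highest of all 527, from WT 1 and WT 2 alone. Transporters had 3 of 27, Abcc3, Slc13a2 and Slc22a28, and plasma proteins had 3 of 32, Afm, C8b and Fgg. Glucose and amino acid metabolism had 2 of 25, Glul and Pygl, with 2.97 and 3.19. Fatty acid oxidation had 1 of 26 (Acadm, 3.19), bile acid and cholesterol metabolism 1 of 25 (Scarb1, 2.93) and PPARG targets 1 of 21 (G0s2, 2.86). No gene of the clock (19 genes) or of chromosome architecture (13 genes) was near one. The nearest KO H3K27ac peak lay from 60 bp (Cyp2d26) to 109788 bp (Slc22a28) away from the regions at these genes. KO-only regions lay near 4 of 41 drug metabolism, 4 of 27 transporter and 2 of 32 plasma protein genes. They lay near 3 of 25 glucose and amino acid, 1 of 26 fatty acid oxidation and 1 of 25 bile acid and cholesterol genes. They also lay near 2 of 21 PPARG target and 3 of 19 clock genes and no architecture gene. Over all genes the shares were 1.57% for WT-only and 8.46% for KO-only regions.

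Of the markers of other liver cells, 2 lay within 5 kb of a WT-only region, both endothelial. Of 14 Kupffer cell, 14 stellate cell, 10 cholangiocyte and 14 lymphocyte markers none did, where 1.57% of all genes did. With lists this short nothing is read from their absence. Of 13 endothelial markers Flt1 and Stab2 did (15.4%), with mean WT folds of 2.97 and 2.94 at the stronger region of each. KO-only regions lay near 7 of 14 stellate cell and 4 of 13 endothelial markers, against 8.46% of all genes. They lay near 1 Kupffer cell, 1 cholangiocyte and 1 lymphocyte marker. Stellate cell markers with any H3K27ac peak numbered 12 to 13 of 14 in KO and 10 to 11 of 14 in WT, and their mean cover was 19.6% to 27.2% in KO and 14.4% to 18.5% in WT. Kupffer cell markers with a peak numbered 7 to 10 of 14 in KO and 5 to 12 in WT. Lymphocyte markers numbered 6 to 7 of 14 in KO and 5 in each WT library. Endothelial markers all had a peak in each library, and cholangiocyte markers with one numbered 4 of 10 in KO and 3 to 4 in WT, with Krt7, Krt19 and Epcam at 0 throughout. In whole liver, a change in the share of a cell type and a change within its cells cannot be told apart, and the part of cell makeup in these regions was not tested.

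PPARg peaks lay in more WT-only regions in KO than in WT livers, as they did over all H3K27ac regions. A PPARg peak lay in 17.5% of them (92 regions, Wilson 95% interval 14.5 to 20.9) in KO 7 and in 18.0% (95 regions, 15.0 to 21.5) in KO 8. It lay in 10.4% (55 regions, 8.11 to 13.3) in WT 2 and in 9.49% (50 regions, 7.27 to 12.3) in WT 4. The KO mean exceeded the WT mean by 7.78 percentage points, and both KO libraries were above both WT libraries. Over all 57342 H3K27ac regions the shares were 26.6% and 25.6% in KO 7 and KO 8 and 17.8% and 17.5% in WT 2 and WT 4, a difference of 8.50 points. For the WT-only regions an exact two-sided permutation test gave p = 0.33, the smallest that 2 libraries against 2 allow. With all PPARg lists shortened to equal length the means were 9.58% in KO and 9.68% in WT, so the difference moved with the length of the lists, 26345 and 27431 peaks in KO against 15514 and 16612 in WT. The intervals cover counting error over regions alone. WT 4 was made with another kit than the other PPARg libraries and lists peaks down to a −log10 q of 1.3, where the others begin near 3. Among the 3 tagmentation libraries the shares were 17.5% and 18.0% in KO 7 and KO 8 and 10.4% in WT 2. At a −log10 q of at least 10 in every list the means were 6.55% in KO and 3.32% in WT.

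Per length, WT-only regions held 18.5 and 19.4 PPARg peaks per 100 kb in KO 7 and KO 8 and 11.2 and 10.8 in WT 2 and WT 4. Regions called in all 6 held 18.0 and 17.2 in KO and 11.9 and 12.7 in WT, much like the WT-only regions. KO-only regions held 9.49 and 8.91 in KO and 2.40 and 2.81 in WT. No difference between these classes of region was tested.

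Single regions were fitted with limma on the percentage of each region that PPARg peaks cover, over the 17649 H3K27ac regions with a PPARg peak in at least 1 library. Of the 527 WT-only regions 127 had such a peak and entered. At an adjusted p under 0.05, 24 of the 127 (18.9%) had more PPARg cover in KO, where 25.2% of all regions tested did. 1 of the 127 (0.787%) had less, where 0.227% of all did. With each library's cover divided by the total length of its list, 4 were higher and 4 lower, against 1.65% and 0.629% of all regions. Without WT 2 or without WT 4 no region passed, higher or lower. By unadjusted p under 0.05, 30 of 124 WT-only regions were then higher in KO and 3 lower without WT 2, against 27.9% and 0.751% of all regions tested. Without WT 4, 31 of 123 were higher and 10 lower, against 23.4% and 1.66%. The 127 had to hold a peak to enter, so their counts do not speak for all 527. A region with 0% in both libraries of 1 genotype entered through the other genotype alone, so its p is no support for a difference. The cover of all regions tested shifted by a median of 13.8 percentage points towards KO.

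The region in Slc13a4, a sulfate carrier gene (chr6:35267765-35269365), had PPARg cover of 72.9% and 95.4% in KO 7 and KO 8, against 33.5% and 22.0% in WT 2 and WT 4. The difference was 56.4 ± 10.1 percentage points (moderated SE of limma, here and below, n = 2 each), with a limma adjusted p of 0.0412. At Mup-ps16 (chr4:61800451-61802699) cover was 79.1% and 69.9% in KO and 0% in both WT libraries, a difference of 74.5 ± 4.33 points (limma adjusted p = 0.0177). That region entered the fit through its KO peaks alone. In Stat5b (chr11:100836815-100837389) cover was 90.8% and 100% in KO and 51.5% and 57.9% in WT, a difference of 40.7 ± 5.0 (limma adjusted p = 0.0269). These regions lack an H3K27ac call in KO by the rule, so nothing is read from the pairing with PPARg. The PPARg libraries KO 7 and KO 8 carry other numbers than the H3K27ac libraries KO 2, KO 3 and KO 4. The nearest KO H3K27ac peak lay 3029 bp away at Slc13a4, 2381 bp at Mup-ps16 and 949 bp at Stat5b.

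The region 248044 bp from Prok2 had 49.0% and 56.2% in KO and 29.5% and 30.8% in WT (limma adjusted p = 0.0379), and that at Fgg had 17.0% and 17.1% in KO and 0% in both WT libraries (limma adjusted p = 0.0316). Acot11, an acyl-CoA thioesterase gene, held 100% and 92.0% in KO and 83.1% and 86.1% in WT, and did not pass (limma adjusted p = 0.128). In Iqch the values were 88.5% and 77.9% in KO and 13.7% and 70.1% in WT, which did not pass either (limma adjusted p = 0.251). The region over the Mup7 start had 10.3% and 4.23% in KO and 0% in both WT libraries (limma adjusted p = 0.201). The Fgg and Mup7 regions entered the fit through their KO peaks alone.

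Without regard to p, 102 of the 127 regions (80.3%) had more PPARg cover in KO and 24 had less. Of all regions tested 91.3% had more. The single region that passed as lower in KO lay 149942 bp from Onecut1 (chr9:74711509-74711978), the gene of a liver transcription factor. It had 0% in KO 7 and KO 8, against 41.5% in WT 2 and 47.4% in WT 4, a difference of -44.5 ± 3.39 points (limma adjusted p = 0.0205). The region entered the fit through its WT peaks alone. Its H3K27ac folds were 3.76, 2.84 and 3.50 in WT 1, WT 2 and WT 4. Of the 29 WT-only regions with a PPARg peak in all 4 libraries, the authors' folds of both KO libraries were above those of both WT libraries in 15 (background 70.5% of 7933 regions) and below in 2 (background 3.83%). PPARg peaks were in both KO libraries alone at 24 of the 527 regions (4.55%), where 5.18% of all 57342 H3K27ac regions had this pattern. They were in both WT libraries alone at 3 (0.569%), where 0.274% of all did.

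**Figure D5:**
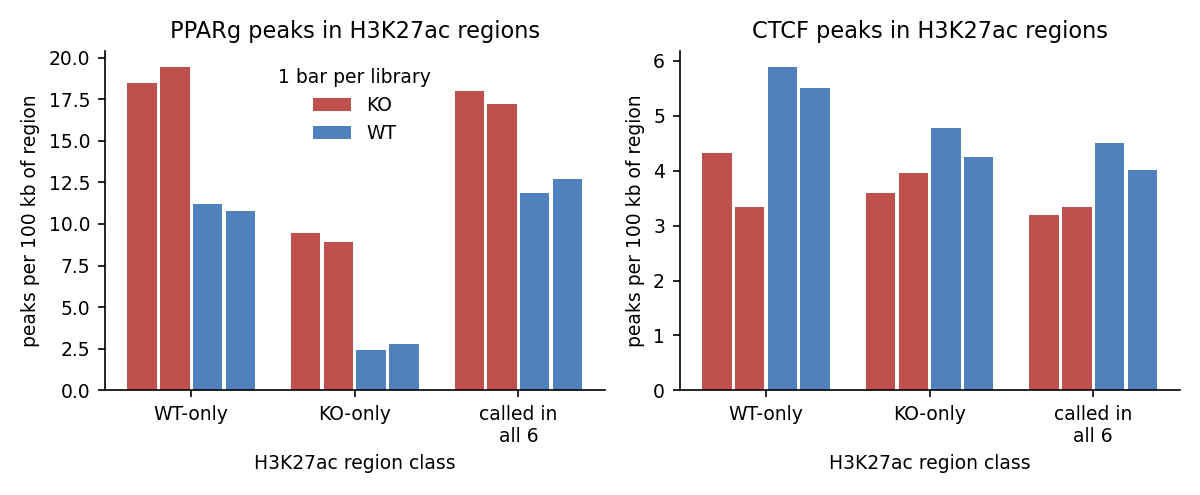
Bars give PPARg (left) and CTCF (right) peaks per 100 kb of H3K27ac region in each library, KO in red left of WT in blue, for WT-only, KO-only and commonly called regions. WT-only regions held 18.5 and 19.4 PPARg peaks per 100 kb in KO and 11.2 and 10.8 in WT, and 4.32 and 3.34 CTCF peaks in KO and 5.89 and 5.50 in WT.

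CTCF peaks lay in fewer WT-only regions in KO than in WT livers, as they did over all H3K27ac regions. A CTCF peak lay in 4.17% of them in KO160 (22 regions, Wilson 95% interval 2.77 to 6.24) and 3.23% in KO163 (17 regions, 2.02 to 5.10). It lay in 5.69% in WT164 (30 regions, 4.02 to 8.01) and 5.31% in WT165 (28 regions, 3.70 to 7.57). Both KO libraries were below both WT libraries, by 1.80 percentage points on average (exact permutation p = 0.33, the smallest possible). Over all H3K27ac regions the shares were 7.97% and 8.36% in KO160 and KO163 and 10.8% and 9.71% in WT164 and WT165. With lists of equal length the WT-only means were 3.70% in KO and 3.42% in WT. Per length, WT-only regions held 4.32 and 3.34 CTCF peaks per 100 kb in KO and 5.89 and 5.50 in WT. Regions called in all 6 held 3.20 and 3.35 in KO and 4.50 and 4.02 in WT, and all H3K27ac regions 3.33 and 3.50 in KO and 4.64 and 4.13 in WT. In 493 of the 527 regions (93.5%) no library had a CTCF peak.

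Of the 34 regions with a CTCF peak, none had a limma adjusted p under 0.05, higher or lower. The background was 0.0588% of 6805 regions lower in KO and 0% higher. At an unadjusted p under 0.05, 4 of the 34 were lower and none higher, against 8.91% and 1.47% of all regions tested. On log2(highest fold + 1), 4 of the 34 passed as lower in KO and none as higher, against 7.91% and 0.485%. Without WT164, 7 of 29 passed as lower and 1 as higher, against 5.4% and 0.606%. Without WT165, 10 of 31 passed as lower and none as higher, against 18% and 0.523%. These settings leave 1 WT library. In 16 regions CTCF was called in all 4 libraries, with the folds of both KO libraries below both WT libraries in 6 (background 45.9% of 3966 regions) and above in 1 (background 4.41%). The region 5137 bp from Psen2, a presenilin gene, had CTCF folds of 18.7 and 13.3 in KO and 20.5 and 19.5 in WT. The region 29144 bp from Tbk1, an innate immune kinase gene, had 10.7 and 10.2 in KO and 12.7 and 8.13 in WT. At Zfp653 CTCF cover was 25.3% and 0% in KO and 54.6% and 45.2% in WT, a difference of -37.2 ± 11.2 points (limma adjusted p = 0.461).

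H3K4me3, measured in KO 4 and WT 2 alone and so without a replicate check, lay in fewer WT-only regions than H3K27ac regions at large, of which 21.0% held a peak in KO and 20.9% in WT. A peak lay in 10 WT-only regions (1.90%, Wilson 95% interval 1.0 to 3.46) in KO and in 16 (3.04%, 1.88 to 4.87) in WT. In regions called in all 6 libraries the shares were 45.3% in KO and 46.2% in WT. Per 100 kb, WT-only regions held 2.16 H3K4me3 peaks in KO and 3.73 in WT. Regions called in all 6, which are wider, held 12.9 and 12.7. Of the 18 regions with a peak in either library, 10 had no KO peak or a covered length at least 2-fold shorter in KO, where 8.53% of 12677 H3K27ac regions did. 2 of the 18 were higher by the same measure, against 7.69%. H3K4me3 libraries KO 4 and WT 2 carry the numbers of H3K27ac libraries that took part in the rule. The labels do not say whether they are the same livers, so H3K4me3 may not be independent of the choice of regions.

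At the Susd4 start H3K4me3 covered 1002 bp in WT (fold 4.91), and no peak was called in KO. At Hsd3b5 it covered 246 bp in WT (fold 3.69), again with none in KO. Shank2, a postsynaptic scaffold gene, had 574 bp in WT (fold 5.41) and none in KO. The remaining peaks in WT alone lay in Nfasc, in Aifm3, at 2 regions of Dock2 and 23196 bp from Rnf186, with folds between 4.09 and 5.84. The start of Samd5 had the reverse, 993 bp in KO (fold 7.07) and none in WT, although its H3K27ac was called in WT 1 and WT 4 alone. There a KO H3K27ac peak lay 78 bp from the region. Celf2, an RNA-binding protein gene whose start is rich in CG dinucleotides, had 568 bp in KO (fold 5.65) and 741 bp in WT (fold 7.35). No H3K4me3 peak lay in the regions of Mup7 or Slc22a28 in either library.

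H3K27me3, with 1 KO and 1 WT library and no replicate check, lay in 4 WT-only regions (0.759%, Wilson 95% interval 0.296 to 1.94) in KO and in 1 (0.190%, 0.0335 to 1.07) in WT. It lay in 0.663% of all H3K27ac regions in KO and 0.654% in WT. 3 of the 4 regions had more in KO, where 41.7% of 571 regions with the mark did, and none had less, where 38.5% did. The 3 were both regions in Dock2, with KO folds of 3.76 and 2.65, and the start of Samd5, with 3.73. In the last of the 4, a peak was called in both genotypes.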

How the data were processed

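Peak lists of 18 ChIP-seq libraries from mouse liver were used as deposited, 1 per library. Per the submitters' processing notes, reads were handled with MACS2 2.1.2, BWA 0.7.12, deepTools 3.1.3 and Picard 1.77 on build mm10. Their roles and the control for peak calling are not given in the sources used here. The authors deposited, per peak, a ratio (the fold over background) and −log10 p and −log10 q values. Their lowest −log10 q was near 1 for H3K27ac and H3K27me3, and the thresholds differ between PPARg WT 4 and the other PPARg lists. Peak lists hold no reads, so no count test was possible and shares carry counting error alone.

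Lists were merged by an overlap of 1 bp, with repeated H3K4me3 intervals (1 line per summit) kept once. A region kept the highest fold and −log10 q of its peaks. Its mean WT fold was taken over the WT lists that called it. Genes were 21631 protein-coding RefSeq genes of GRCm38.p6, the assembly behind mm10, as spans without strand. A region was assigned to the nearest gene. Promoter windows came from RefSeq and did not cover chromosome 18.

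PPARg and CTCF cover was fitted with limma 3.58.1 in R 4.3.3 on all regions with a peak in at least 1 of 4 libraries, with Benjamini-Hochberg adjustment, tested on simulated data. Library shares were compared by exact permutation in scipy 1.17.1 under Python 3.11.15. With 1 library per genotype, a change meant a 2-fold difference in covered length or a peak in 1 genotype alone. Labels give libraries as separate samples without naming animals, so p-values measure the spread between these libraries. In limma the variance of each region is drawn towards that of all regions tested. Its SE and p therefore do not rest on the libraries' values at that region alone.

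Genes were named by a rule: those nearest the 10 widest regions, the 10 with the highest WT fold, the 5 with most PPARg and the 5 with most CTCF cover, and list genes within 5 kb, up to 4 per list. Cyp7b1, Amigo2, Gstm6, Mup14, Mup-ps12 and the genes at H3K4me3 and H3K27me3 peaks fall outside the rule or were chosen after their values were seen. The members and lists were chosen with earlier results of these data known. Not all genes the rule takes are described. The alternatives tried were other list lengths, thresholds, merging distances and left-out libraries.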

Additional observations from a re-analysis of the deposited data

How the results depend on the processing

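The number of WT-only regions was 99 when all 3 WT lists had to call them, 1018 with lists of equal length, 1213 with lists of equal covered length, and 168 (without WT 2) to 2125 (without KO 4) with 1 library left out. It stayed within 1.5 times of 527 at a −log10 q of 2 (494) and with peaks merged up to 500 bp apart (508). Counts near genes, with windows of 0 or 10 kb, were 319 and 372.

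The number of H3K27ac regions passing in limma for PPARg was 4480, but 402 with cover divided by list totals, 2102 with lists of equal length, 645 with all regions fitted, and 0 to 6265 with 1 library left out. Of the WT-only regions 25 passed, and 8, 10, 4 and 0 to 47 did under the same settings. For CTCF 4 passed, and 571 on log2(highest fold + 1), 0 with cover divided by list totals, 0 with lists of equal length, 57 with all regions fitted and 0 to 1201 with 1 library left out. Of the WT-only regions none passed for CTCF as reported, 4 did on log2(highest fold + 1), and 0 to 10 with 1 library left out. Leaving out 1 library leaves a genotype with a single one, which is assumed to vary like the other genotype.

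With lists of equal length the difference in PPARg share turned to -0.0949 percentage points (exact p = 1) and that in CTCF share to 0.285 (exact permutation p = 0.667). The other 7 alternatives of each, left-out libraries included, kept its direction. The H3K27me3 share was 0 in WT at an overlap of 10% of the region and 0 in both genotypes over regions called in all 3 WT lists. H3K4me3 shares stayed within their intervals. The causes of these shifts were not tested. Depth is unknown. No paired analysis was possible because the H3K27ac contrast comes from no test, and the PPARg libraries and the CTCF libraries share no replicate numbers between genotypes.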
